A study of Mus musculus with 26 samples.

Results

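The genes described here are the 153 genes that passed the same threshold in all 4 inductions of 2-cell-like mouse embryonic stem cells (ESCs) in the study, out of 55291 genes in the deposited count table. A gene was taken when its mean CPM (the count as a share of the total of the library, in ppm) plus 1 was at least 2 times that of the control in Dux OE and in Zscan4 OE against untreated ESC, and in RA and in PlaB against DMSO. The ratios alone passed 169 genes. Of these, 16 were left out because their names begin with Zscan4, Tdpoz, Usp17l, Tcstv, Obox, Trim43, Pramel, Pramef, Hox or Hist. Only the name was used, so relatives of these genes under other names were not left out. What follows is how the remaining 153 behaved in the 7 groups in which Dux was knocked down, the Tdpoz super-enhancer was knocked out, or Dux carried the R70A change. None of these 7 groups was used to choose the genes, but the 6 groups that they are compared with were.

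Poly(A) RNA of R1 ESCs grown in LIF was sequenced in 26 libraries, in 13 groups of 2 replicates. Dux OE, Zscan4 OE and Dux R70A OE cells received doxycycline at 4 µg/mL for 24 h to switch on the named transgene, and R70A is a form of Dux with a changed arginine. RA cells received 0.53 µM retinoic acid for 48 h. PlaB cells received 4 nM pladienolide B, an inhibitor of the splicing factor SF3B, for 4 days. RA and PlaB are compared with DMSO cells, and the transgenes with untreated ESCs. No doxycycline is given for the ESCs and no time for the DMSO cells. None of the 13 groups is named as a control knockdown or an uninduced transgene line. Effects of doxycycline, culture time or cell line therefore cannot be told apart from those of the named factors. Dux KD cells carried a knockdown of Dux and were given RA, PlaB or Zscan4 OE. SE KO cells lacked the super-enhancer at the Tdpoz genes and were given RA, PlaB or Dux OE at the same doses and times. The labels name neither the shRNA nor the clone sequenced. Both Dux KD Zscan4 OE libraries are labelled as untreated with no time, so that their induction rests on the sample titles. Replicate 1 of SE KO RA carries a wild-type genotype label against its title. No knockdown or knockout group without an induction was analysed here. Nothing says that replicates came from separate cultures, so p-values measure the spread between these libraries.

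Dux is a double-homeobox transcription factor encoded in a repeat on mouse chromosome 10 and active for a short time when the embryonic genome is first transcribed. A few cells in an ESC culture return to a state with features of the 2-cell embryo, in which Dux and its targets, such as Zfp352, the Zscan4 cluster and many young gene copies, are transcribed. Zscan4 acts in the same state, and retinoic acid and splicing inhibition both raise the share of cells that enter it. In bulk RNA, more cells in that state and more RNA per cell cannot be told apart.

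Pluripotency genes were detected in every library but varied. The 15 genes of the pluripotency list summed to between 4431 and 10616 CPM, lowest in SE KO RA with 4431 and 4468 CPM. Single genes varied more, Pou5f1 between 204 and 873 CPM, Nanog between 77.2 and 1342 CPM and Sox2 between 23.9 and 709 CPM. A list of fibroblast and feeder genes ranged from 245 CPM in a PlaB library to 3366 CPM in a Dux OE library. Library totals were between 14401452 and 39402840 counts, so that 3 counts, taken as the floor of detection, stand for 0.0761 to 0.208 CPM. Counting error sets only part of the spread, since replicates of a group differed by 1.55 to 30.2 times the variance of counting. The values were highest in SE KO PlaB (30.2) and Dux KD Zscan4 OE (26.1). Genes are called lower or higher below when edgeR's quasi-likelihood test gave an adjusted p under 0.05 and a change of at least 2-fold. All 153 genes passed the count filter and were tested among 20953.

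Promoter sequence was alike in a few genes of the set. RefSeq windows on GRCm38.p6, from 250 bases before to 50 after a start, were found for 69 of the 153 genes (45.1%) by symbol. The windows of Eif4a3l1, Gm4340 and Sp110, on 3 chromosomes, share an identical run of 45 bases that ends 2, 4 and 1 bases before the start. These are shown because the run lies where transcription starts and because all 3 genes are in the set. Capitals mark the run. The windows are Eif4a3l1 at chr6:136327289-136327588 on the plus strand, Gm4340 at chr10:104193792-104194091 on the plus strand, and Sp110 at chr1:85603842-85604141 on the minus strand, each printed 5′ to 3′.
Eif4a3l1: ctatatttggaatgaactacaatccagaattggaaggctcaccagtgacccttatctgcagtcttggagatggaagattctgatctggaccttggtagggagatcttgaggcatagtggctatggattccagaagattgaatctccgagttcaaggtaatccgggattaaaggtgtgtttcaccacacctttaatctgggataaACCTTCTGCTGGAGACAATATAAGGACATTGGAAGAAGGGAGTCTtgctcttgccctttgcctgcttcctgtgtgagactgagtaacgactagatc
Gm4340: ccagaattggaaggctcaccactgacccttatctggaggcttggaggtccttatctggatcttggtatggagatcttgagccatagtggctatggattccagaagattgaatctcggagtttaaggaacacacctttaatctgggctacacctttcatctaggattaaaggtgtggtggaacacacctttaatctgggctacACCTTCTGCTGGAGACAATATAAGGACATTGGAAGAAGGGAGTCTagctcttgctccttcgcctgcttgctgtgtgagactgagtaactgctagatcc
Sp110: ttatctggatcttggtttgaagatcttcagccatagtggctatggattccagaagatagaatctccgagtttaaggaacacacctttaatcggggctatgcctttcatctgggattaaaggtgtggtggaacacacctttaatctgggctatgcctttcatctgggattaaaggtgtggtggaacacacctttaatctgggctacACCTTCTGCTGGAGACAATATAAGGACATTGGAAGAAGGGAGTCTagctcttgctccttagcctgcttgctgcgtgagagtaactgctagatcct
The run is present in 18 of the 32851 windows in the table (0.0548%), which belong to 17 genes. Only 3 of these genes are in the set. Over at least 80 aligned bases, the window of Eif4a3l1 was like those of 28 other genes, 2 of them in the set. The windows of Gm4340 and of Sp110 were each like those of 25, again with 2 in the set. The sequence is thus not particular to the set. In pairwise alignment the windows of Gm4340 and Sp110 were 94.9% identical over 176 bases.

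The letters GATTNAATC, which equal their own reverse complement and resemble the sequence Dux is known to bind, were searched as spelled and so on both strands. They occurred in 5 of the 78 windows of the set (6.41%), from 5 of 69 genes, against 88 of 32851 windows in all (0.268%). The 5 genes are Duxf3, Eif4a3l1, Gm4340, AF067061 and Gm21761. The windows of Duxf3, the copy of Dux that the table counts by that name, and of AF067061 are shown. They were picked because Duxf3 is the knockdown's target family and AF067061 had among the lowest fold changes from Dux OE to Dux R70A OE. Capitals mark the matched letters, which begin 139 bases before the RefSeq start of Duxf3 (window chr10:58233040-58233339, minus strand) and 125 before that of AF067061 (window chr13:120262845-120263144, plus strand).
Duxf3: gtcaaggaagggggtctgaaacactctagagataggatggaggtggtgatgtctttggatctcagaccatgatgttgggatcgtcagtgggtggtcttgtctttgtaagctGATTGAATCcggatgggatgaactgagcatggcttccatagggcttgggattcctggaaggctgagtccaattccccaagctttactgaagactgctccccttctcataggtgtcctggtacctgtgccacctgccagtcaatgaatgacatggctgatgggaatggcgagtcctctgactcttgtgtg
AF067061: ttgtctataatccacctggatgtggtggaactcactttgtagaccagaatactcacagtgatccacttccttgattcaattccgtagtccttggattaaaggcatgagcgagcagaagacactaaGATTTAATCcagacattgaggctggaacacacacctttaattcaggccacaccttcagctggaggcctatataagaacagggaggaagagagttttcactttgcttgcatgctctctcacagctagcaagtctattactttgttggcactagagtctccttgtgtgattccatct
AF067061 and Gm21761, also on chromosome 13, had windows that were 90.3% identical over 300 bases, and the windows of Eif4a3l1 and Gm4340 were identical over 34 bases through the match. The 5 matches thus hold 2 pairs of like sequences, which are not independent. A match of letters is a description and not a binding site, and the 84 genes without a window were not searched.

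Part of the set consists of gene copies. Of the 153 genes, 87 are annotated as protein coding, 34 as pseudogenes and 20 as other transcripts in GENCODE M21, and 12 are not named there. Pseudogenes were 22.2% of the set against 23.1% of the genes in the table, and protein-coding genes 56.9% against 38.9%. By transcript sequence, 50 genes fall into 13 families whose members are at least 90% identical over at least 50% of the shorter transcript. The share of all genes in such families was not measured. The largest has 17 genes, 91.2% to 99.8% identical, and all lie at chr12:87480108-88324026 (mm10), a span that holds 22 of the 153 genes. Several of the 17, such as Gm5039, Gm8300, Gm2016 and Gm2022, are known as copies related to the translation initiation factor Eif1a. Chromosome 12 in all holds 27 of the 153 genes (17.6%), against 4.46% of the genes in the table. How reads that match several copies were counted is not given in the sources used here, so a value for 1 copy of a family is uncertain and families are also given as sums.

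The values that chose the genes are a description only. Median ratios were 19.7 in Dux OE, 2.93 in Zscan4 OE, 6.08 in RA and 13.4 in PlaB. Zscan4 OE gave the smallest of the 4 ratios in 130 genes, and PlaB gave the largest in 74 and Dux OE in 64. Just inside the threshold were Ostm1 with a smallest ratio of 2.00048, Gm44693 with 2.00746 and Ctsc with 2.02201. Just outside were Prnp with 1.99935, Olfr787 with 1.99709 and Gm11545 with 1.98583.

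Summed over the 153 genes, replicates 1 and 2 held 422 and 412 CPM in ESC and 299 and 299 CPM in DMSO. The sums were 10300 and 10785 CPM in Dux OE, 12336 and 12558 in PlaB, 3265 and 2830.2 in RA and 1930.1 and 1879 in Zscan4 OE. With Dux knocked down they were 2854 and 2838 CPM in RA, 592 and 607 in PlaB and 506 and 543 in Zscan4 OE. Thus by sum the Dux KD RA libraries lay within the range of the RA libraries. The libraries with Zscan4 OE or PlaB and the knockdown lay nearer to the controls. Genes of high level weigh most in a sum. The median gene lay lower in Dux KD RA, at 5.62 and 5.63 CPM, than in RA, at 7.73 and 6.64 CPM. Of the 153 log2 fold changes between these groups, 119 were negative and 34 positive. In SE KO cells the sums were 6915 and 5851 CPM with Dux OE, 3092 and 2611 CPM with PlaB and 794 and 842 CPM with RA. Dux R70A OE held 485 and 536 CPM, just above both ESC libraries. Its median gene lay lower, at 0.0558 and 0.0664 CPM against 0.389 and 0.474 CPM in ESC. In Dux R70A OE 60 and 63 genes had no count, against 8 and 14 in ESC.

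**Figure D1:**
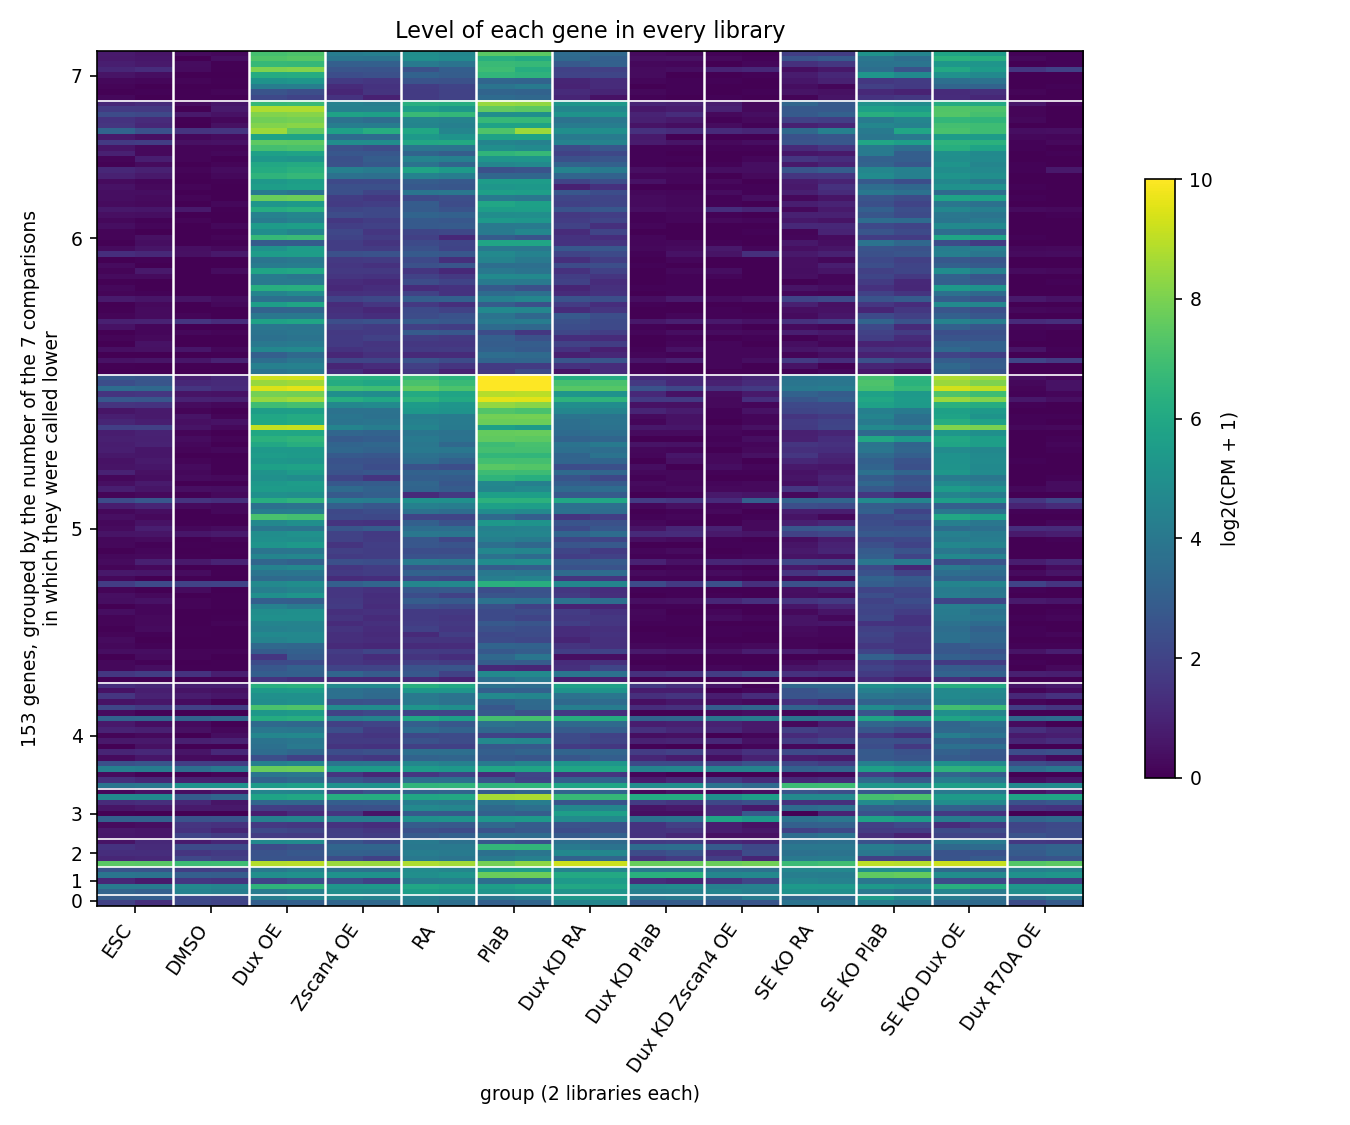
Level of each of the 153 genes, as log2(CPM + 1) in colour, in every library (columns, 2 per group). Rows are grouped by the number of the 7 comparisons with an induced group in which the gene was called lower. Dux KD RA, SE KO PlaB and SE KO Dux OE keep a visible level in most rows, whereas Dux KD Zscan4 OE, Dux R70A OE and Dux KD PlaB resemble ESC and DMSO except in the lowest rows, which hold the 21 genes called lower in at most 3 comparisons.

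Duxf3 was examined first, since the knockdown targets Dux. Duxf3 (chr10:58229979-58232675) had 0.167 and 0 CPM in ESC and 0.0533 and 0 CPM in DMSO. It had 2.34 and 2.92 CPM in RA and 1.03 and 0.398 CPM in Dux KD RA, which gave a log2 fold change of -1.93 ± 0.46 (SE, edgeR adjusted p = 0.0015). It had 10.3 and 9.30 CPM in PlaB and 0.0574 and 0 CPM in Dux KD PlaB, and 1.73 and 0.915 CPM in Zscan4 OE and 0.0619 and 0 CPM in Dux KD Zscan4 OE. The knockdown groups thus lay below the induced groups in each pair, and the Dux KD RA libraries stayed above both controls. In SE KO cells Duxf3 had 0.0963 and 0.440 CPM in RA, 1.75 and 2.10 CPM in PlaB and 1.40 and 1.18 CPM in Dux OE, called lower in all 3 comparisons. In Dux OE it had 3.66 and 2.98 CPM, and in Dux R70A OE no count in either library, at least 18.1-fold lower. Dux is also the transgene in Dux OE, SE KO Dux OE and Dux R70A OE. Whether transgene reads were counted as Duxf3 was not examined, so the source of the Duxf3 counts in these 3 groups is not known. Duxf3 and AW822073 are a family of like transcripts, and both were called lower in all 7 comparisons.

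With RA, most of the set stayed high in the knockdown. Of the 153 genes, 32 were called lower in Dux KD RA than in RA and 5 higher, against 4.54% and 6.41% of all tested genes, and the median log2 fold change was -0.52 (0.01 over all genes). Against DMSO, 150 genes were still called higher (22.0% of all genes) and none lower. Gm8723, on chromosome 10, had the lowest fold change at a low level, with 1.81 and 1.49 CPM in RA and 0.323 and 0.331 CPM in Dux KD RA. Among the genes of higher level the lowest were Gm11543, AA623943 and Gm11546, pseudogenes that lie beside Tmem92 on chromosome 11. AA623943 had 21.3 and 18.7 CPM in RA and 4.39 and 5.30 CPM in Dux KD RA, and its log2 fold change was -2.11 ± 0.22 (SE, edgeR adjusted p = 3.3e-08). Tmem92, which encodes a transmembrane protein, had 40.0 and 34.0 CPM in RA and 16.0 and 16.9 CPM in Dux KD RA, with a log2 fold change of -1.23 ± 0.16. Both genes thus fell with no overlap, and remained well above the 0.257 CPM or less seen in DMSO.

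The 5 genes called higher in Dux KD RA were Gm13128, Abcb5, H4c9, Fgfr2 and Arap2. Gm13128 (chr4:144330249-144333465) had no count in DMSO, 6.20 and 5.89 CPM in RA and 47.7 and 49.0 CPM in Dux KD RA, which gave a log2 fold change of 2.93 ± 0.37. Fgfr2, a receptor for fibroblast growth factors used in the trophectoderm and primitive endoderm, had 17.7 and 18.7 CPM in RA and 40.2 and 43.4 CPM in Dux KD RA. Abcb5, an ABC transporter, had 1.34 and 2.18 CPM in RA and 5.88 and 6.36 CPM in Dux KD RA. For these genes the groups did not overlap. Fgfr2 was on the trophectoderm list, which summed to between 113 and 636 CPM over all libraries, and the part of other cell types in its values was not tested.

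With PlaB, nearly the whole set was lower in the knockdown. Of the 153 genes, 147 were called lower in Dux KD PlaB than in PlaB and none higher, with a median log2 fold change of -6.51 (-6.23 with genes at 0 set to the floor). Over all tested genes 28.8% were called lower, so the background of this comparison is high, and its median was -0.14. Gm5039 (chr12:88320122-88324026), a gene of the chromosome 12 family, had 1182 and 1144 CPM in PlaB and 1.49 and 1.35 CPM in Dux KD PlaB, a log2 fold change of -9.47 ± 0.19 (SE, edgeR adjusted p = 2.5e-24). Gm12794, on chromosome 4, had 189.6 and 179.9 CPM in PlaB and no count in either Dux KD PlaB library, at least 1062-fold lower. Both levels lay at or near those of DMSO, where Gm5039 had 0.852 and 1.23 CPM and Gm12794 0.266 and 0.103 CPM. Against DMSO, 28 of the 153 were called higher in Dux KD PlaB and 2 lower, against 7.53% and 4.14% of all genes. Genes outside the set differed as well. The fibroblast and feeder list had 245 and 276 CPM in PlaB, 1673.5 and 1695 in Dux KD PlaB and 1492 and 1547 in DMSO. A list of p53 targets had 6136 and 6428, 3651.8 and 3651.5, and 1695 and 1662 CPM in the same groups. Whether the Dux KD PlaB cells responded less to PlaB as a whole was not tested. The 6 genes without a call against PlaB were Epm2a, Ostm1, Scamp1, Mreg, Phldb2 and Arap2, with log2 fold changes between -0.97 and 0.15.

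With Zscan4 OE, too, most of the set was lower in the knockdown libraries, which was not tested against the effect with PlaB. These libraries are labelled as untreated with no time. By the labels, the knockdown and a lack of induction cannot be told apart here. In Dux KD Zscan4 OE, 136 genes were called lower than in Zscan4 OE and 2 higher, against 5.35% and 5.78% of all genes, with a median log2 fold change of -5.00 (-3.93 with genes at 0 set to the floor). Tmem92 had 10.3 and 10.3 CPM in Zscan4 OE and no count in either knockdown library, at least 52.3-fold lower. Zfp352, a zinc finger gene of the early embryo, had 1.22 and 1.45 CPM in Zscan4 OE and also no count with the knockdown, at least 6.79-fold lower. Against ESC, 41 genes were called lower in Dux KD Zscan4 OE and 11 higher (2.55% and 5.56% of all genes). Without replicate 1 of Dux KD Zscan4 OE the 41 became 27, and in a fit of these 2 groups alone, which tested 61 of the genes, 21. The 2 genes called higher than in Zscan4 OE were Gm13128, with 1.36 and 5.90 CPM against 1.99 and 0.484 CPM, and Plekhg1, with 55.8 and 39.9 CPM against 17.5 and 17.3 CPM. The libraries of Gm13128 overlapped between the groups and those of Plekhg1 did not.

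The difference between the knockdown effects was tested as an interaction in the same edgeR model. The effect of Dux KD was called more negative with PlaB than with RA in 144 of the 153 genes (26.6% of all genes), with a median difference of -6.07 on the log2 scale, and in no gene less negative. Called either way were 52.2% of all genes. With Zscan4 OE against RA it was more negative in 135 and less in 1, Plekhg1 (6.22% and 6.04% of all genes), with a median difference of -4.21. Called either way were 12.3% of all genes. The Dux KD Zscan4 OE libraries in this test are labelled as untreated, so a lack of induction cannot be told apart from the knockdown. Zfp352 shows the pattern, with 1.38 and 1.73 CPM in RA and 1.03 and 1.59 CPM in Dux KD RA, no call, and 6.18 and 4.42 CPM in PlaB against 0.0574 and 0.0585 CPM in Dux KD PlaB. Duxf3 fell less with RA as well, its effect differing by -5.99 ± 1.05 between PlaB and RA. The induced libraries in these tests were used to choose the genes.

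**Figure D2:**
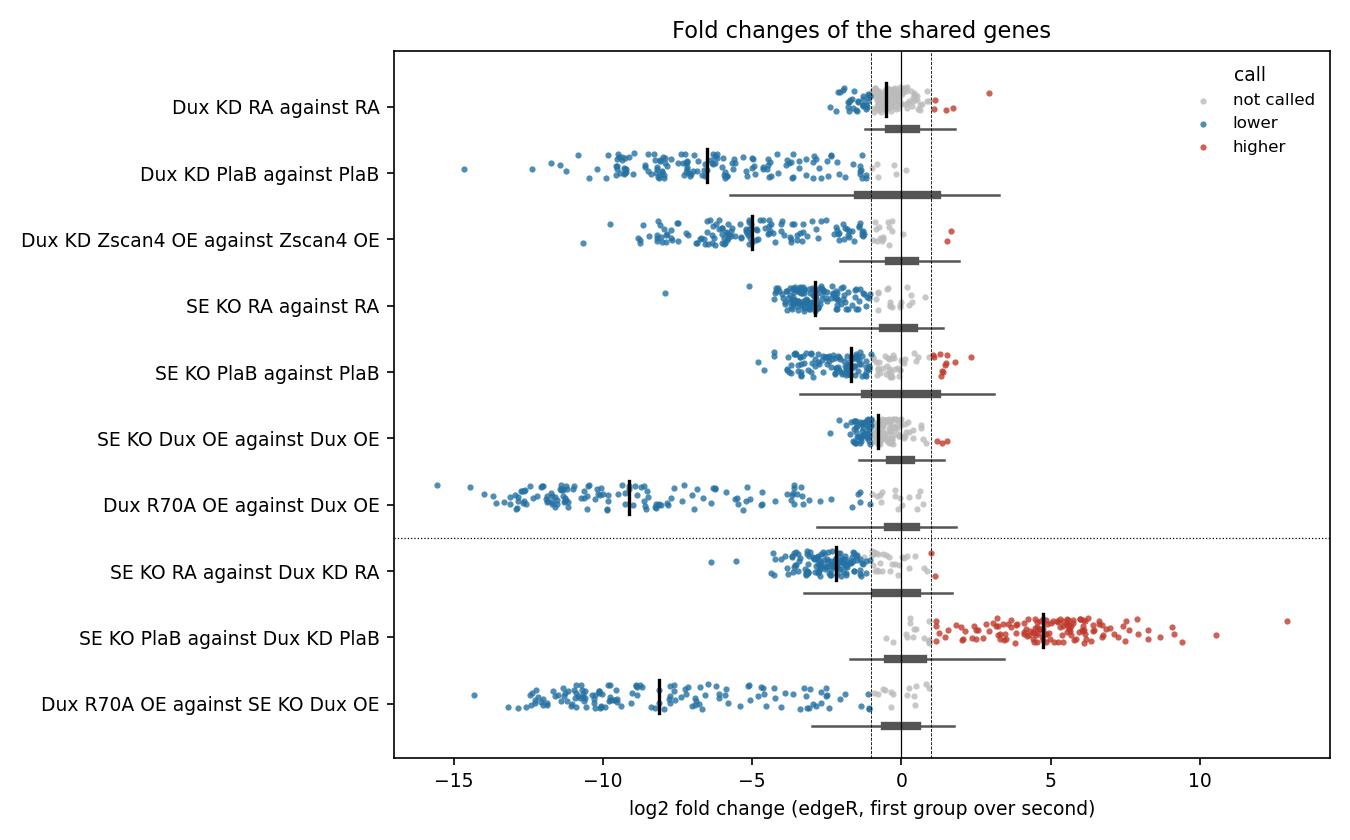
Log2 fold changes of the 153 genes by edgeR (points, coloured by call, spread vertically for visibility), with their median as a black bar. Grey bars under each row give the interquartile range of all 20953 tested genes and thin lines the 5th to 95th percentile, and the dotted line sets apart the 3 comparisons in which neither group was used to choose the genes. Medians lie at -6.51, -5.00 and -9.12 for Dux KD PlaB, Dux KD Zscan4 OE and Dux R70A OE, and at -0.52 for Dux KD RA.

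Most of the set was lower in SE KO cells under RA. In SE KO RA, 135 genes were called lower than in RA (11.0% of all genes) and none higher, with a median log2 fold change of -2.91. Gm5039 had 109 and 85.4 CPM in RA and 13.01 and 13.9 CPM in SE KO RA, a log2 fold change of -2.80 ± 0.13 (SE, edgeR adjusted p = 3.1e-15). Gm4971, a processed pseudogene, had 21.8 and 18.8 CPM in RA and 0.915 and 1.19 CPM in SE KO RA, 19.3-fold lower. Neither gene's groups overlapped, and Gm5039 stayed above its DMSO level. Against DMSO, 119 of the 153 genes were called higher in SE KO RA (17.2% of all genes). Without the library whose genotype label disagrees with its title, 131 were called lower than RA and 110 higher than DMSO. Of the 15 genes of the pluripotency list, 10 were called lower in SE KO RA than in RA and 2 higher, with a median log2 fold change of -1.24. The RA libraries had 6792 and 6897 CPM of that list, and its part in these values was not tested.

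Under PlaB and Dux OE fewer genes were called lower in SE KO cells. In SE KO PlaB, 104 genes were called lower than in PlaB and 11 higher, against 26.1% and 25.9% of all genes, with a median log2 fold change of -1.69. In SE KO Dux OE, 58 were called lower than in Dux OE and 3 higher, against 3.84% and 2.46%, with a median of -0.78. Gm10800, on chromosome 2, had the lowest fold change with Dux OE, from 269 and 285 CPM to 64.4 and 44.0 CPM, a log2 fold change of -2.39 ± 0.20. Abcb5 had the lowest with PlaB, from 48.6 and 47.5 CPM to 2.07 and 1.12 CPM, a log2 fold change of -4.79 ± 0.24. The groups did not overlap in either case. Compared with their controls, 144 genes were called higher and 1 lower in SE KO PlaB than in DMSO (17.1% and 11.0% of all genes), and 150 were called higher in SE KO Dux OE than in ESC (9.02% of all genes).

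Interaction tests compared the knockout's effects. With Dux OE the effect was less negative than with RA in 114 of the 153 genes (12.1% of all genes) and more negative in none, with a median difference of 1.93 on the log2 scale. Called either way were 20.8% of all genes. With PlaB it was less negative than with RA, or positive, in 65 and more negative in 14, against 28.3% and 20.7% of all genes, with a median difference of 0.75. The 79 genes called either way were 51.6% of the set, close to the 49.0% over all genes. The 14 include Ctsc, Cyp27a1, Tspan18, P4ha2 and Thnsl2. Lower calls in all 3 SE KO comparisons were made for 43 genes (0.764% of all genes), and in all 3 Dux KD comparisons for 31 (0.382% of all genes). The 9 genes called lower in all 7 (0.0764% of all genes) include Gm10800, Gm18983, Gm1995, Gm12800, Gm7104, Duxf3 and AW822073.

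A group of pseudogenes went the other way under PlaB. Gm16478, Gm21037 and Gm7957, like transcripts on chromosome 7, summed to 59.7 and 59.6 CPM in PlaB and to 162 and 138 CPM in SE KO PlaB, and all 3 were called higher. In RA they summed to 192 and 182 CPM and in SE KO RA to 13.4 and 15.2 CPM, and in Dux OE to 543 and 567 CPM and in SE KO Dux OE to 281 and 241 CPM, and all 3 were called lower in both. For these 3 genes the knockout thus went with higher levels under PlaB and with lower levels under the other 2 inductions. As like transcripts, the 3 are not independent of each other. Gm18765 (chr6:50627680-50628339), of a family of 5 pseudogenes on chromosome 6, had 4.40 and 4.83 CPM in PlaB and 22.9 and 19.6 CPM in SE KO PlaB, a log2 fold change of 2.32 ± 0.19 (SE, edgeR adjusted p = 2.5e-11). In that family 3 of 5 were called higher. Its effect under PlaB differed from that under RA by 5.31 ± 0.27 on the log2 scale. The remaining genes called higher in SE KO PlaB were Gm29361, with 5.59 and 9.30 CPM in PlaB and 28.5 and 19.6 CPM in SE KO PlaB, Arap2, Phldb2, Gm17767 and Gm21960.

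**Figure D3:**
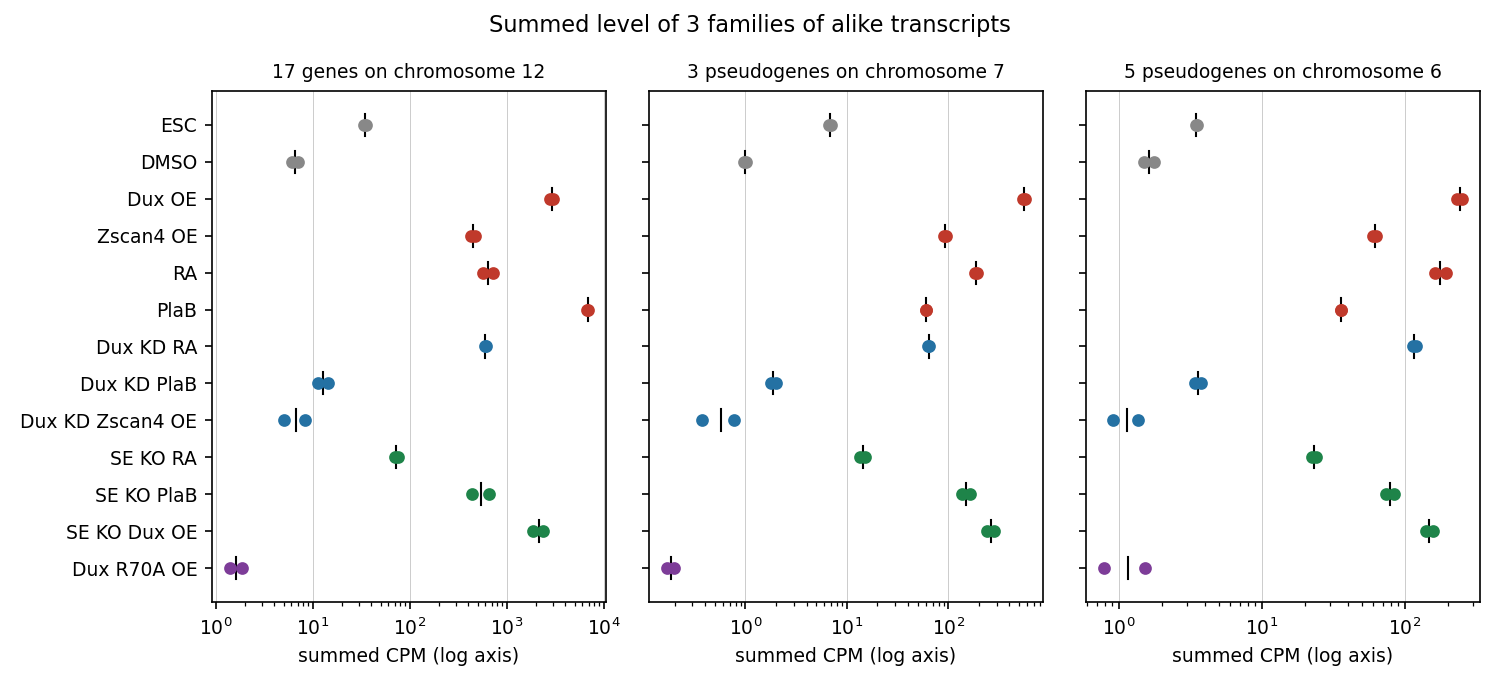
Summed CPM on a log axis of 3 families of alike transcripts in every library (points), with the mean of the 2 replicates as a bar, and colours for controls (grey), inductions (red), Dux KD (blue), SE KO (green) and Dux R70A OE (purple). The 17 genes on chromosome 12 reach their highest level in PlaB, 6793 and 6879 CPM, whereas the 3 pseudogenes on chromosome 7 and the 5 on chromosome 6 are lower in PlaB than in SE KO PlaB.

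The chromosome 12 family went with the set in most groups. Its 17 genes summed to 35.2 and 33.9 CPM in ESC, 6.98 and 6.07 CPM in DMSO, 726 and 571 CPM in RA and 6793 and 6879 CPM in PlaB. With Dux knocked down the sum was 594 and 606 CPM in RA and 14.2 and 11.4 CPM in PlaB, and in SE KO cells 69.7 and 75.0 CPM in RA and 653 and 440.2 CPM in PlaB. All 17 were called lower in Dux KD PlaB, Dux KD Zscan4 OE, SE KO RA, SE KO PlaB and Dux R70A OE, 2 in SE KO Dux OE and none in Dux KD RA. The 103 genes outside these families, of which 12 had no transcript to compare, gave the same order of counts, with 18 called lower in Dux KD RA, 34 in SE KO Dux OE, 70 in SE KO PlaB, 85 in SE KO RA, 86 in Dux KD Zscan4 OE, 88 in Dux R70A OE and 97 in Dux KD PlaB.

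The set was low in Dux R70A OE. Reads of the transgene were not analysed here, so its expression was not checked. In Dux R70A OE, 138 genes were called lower than in Dux OE and none higher (7.51% of all genes lower), with a median log2 fold change of -9.12 (-7.27 with genes at 0 set to the floor). In 44 genes neither Dux R70A OE library had a count. Zfp352 had 76.2 and 77.3 CPM in Dux OE and none in Dux R70A OE, at least 419-fold lower. AF067061 had 139 and 127 CPM and none, at least 725-fold lower, and Gm4971 274 and 298 CPM and none, at least 1561-fold lower. Against ESC, 65 genes were called lower in Dux R70A OE and 18 higher (6.72% and 10.2% of all genes). The lower count rests on the fit, since a fit of these 2 groups alone tested 65 of the genes and called 27 lower and 18 higher, and without replicate 1 of Dux R70A OE 43 were called lower.

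The 15 genes without a call between Dux R70A OE and Dux OE were Usp26, Arap2, Phldb2, Wls, Fgfr2, Thnsl2, Plk2, Mblac2, Serpine2, Gask1b, Samd12, Cyp27a1, Ostm1, Ctsc and Tspan18. Plk2, a polo-like kinase that p53 is known to activate, had 54.3 and 61.6 CPM in Dux OE and 56.1 and 58.6 CPM in Dux R70A OE, against 26.9 and 25.5 CPM in ESC. Ctsc, the lysosomal protease cathepsin C, had 3.86 and 4.54 CPM in Dux OE and 6.86 and 8.17 CPM in Dux R70A OE, against 1.78 and 1.36 CPM in ESC. Cyp27a1, a mitochondrial sterol hydroxylase, had 2.20 and 2.05 CPM in Dux OE and 3.29 and 3.79 CPM in Dux R70A OE, against 0.223 and 0.296 CPM in ESC. In these genes both Dux forms lay above ESC, and Cyp27a1 (log2 fold change 3.51 ± 0.42 against ESC) and Ctsc (2.01 ± 0.23) were among the 18 called higher than ESC.

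In 3 comparisons neither group used any of the libraries that chose the genes. In SE KO RA 123 genes were called lower than in Dux KD RA and 2 higher (17.0% and 11.2% of all genes), with a median log2 fold change of -2.19 against -0.10 for all genes. The 2 higher were P4ha2, a subunit of collagen prolyl hydroxylase, with 115 and 118 CPM in SE KO RA and 57.8 and 57.4 CPM in Dux KD RA, and Thnsl2, a threonine synthase-like gene, with 15.3 and 15.7 CPM and 7.95 and 8.81 CPM. Gm13128 was the lowest, with 0.0482 and 0.968 CPM in SE KO RA and 47.7 and 49.0 CPM in Dux KD RA, which gave a log2 fold change of -6.39 ± 0.51 (SE, edgeR adjusted p = 7.9e-11). Under PlaB the order turned round. In SE KO PlaB 138 genes were called higher than in Dux KD PlaB (12.5% of all genes) and none lower, with a median log2 fold change of 4.75 (4.58 with genes at 0 set to the floor). Gm12794 had 62.1 and 41.9 CPM in SE KO PlaB and no count in Dux KD PlaB, at least 299-fold higher. Between the Dux transgenes, 139 genes were called lower in Dux R70A OE than in SE KO Dux OE (9.28% of all genes) and none higher, with a median of -8.12 (-6.30 with genes at 0 set to the floor). Gm4971 had 127 and 119 CPM in SE KO Dux OE and none in Dux R70A OE, at least 670-fold lower. The groups in these 3 comparisons differ both in genotype and in the means of perturbation, which cannot be told apart.

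The genes differed in the number of perturbations with a lower call. All 153 genes were called in at least 1 of the 7 comparisons with an induced group, and 132 were called lower in 4 or more, 49 of them in 6 and 55 in 5. Over all tested genes 3.21% were called lower in 4 or more, and several of the comparisons share induced libraries that chose the genes. In 130 genes the lower call was shared by Dux KD PlaB, Dux KD Zscan4 OE and Dux R70A OE, against 1.72% of all genes. The other 21 genes were called lower in at most 3. Of these 21, 20 are annotated as protein coding, none as a pseudogene and none belongs to a family of like transcripts, whereas of the 132, 67 are protein coding, 34 pseudogenes and 50 in families. The 21 had a median of 1.49 CPM in ESC (range 0.0278 to 171) and the 132 a median of 0.350 CPM (0 to 18.0), though ESC levels entered the choice of genes.

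The 21 differ among themselves by induction. Serpine2, a secreted inhibitor of serine proteases, had 208 and 212 CPM in PlaB, 79.8 and 82.8 CPM in Dux KD PlaB and 183 and 200 CPM in SE KO PlaB, and was called lower in Dux KD PlaB only among the 7 comparisons. Mreg, which encodes melanoregulin, a protein of melanosome transport, had 435 and 390 CPM in RA, 598 and 587 CPM in Dux KD RA and 111 and 121 CPM in SE KO RA, and was called lower in SE KO RA and in Dux R70A OE. Usp26, a deubiquitinase gene on the X chromosome, had 17.5 and 15.6 CPM in RA, 1.64 and 1.54 CPM in SE KO RA, 8.72 and 9.26 CPM in Dux OE and 29.1 and 23.9 CPM in SE KO Dux OE. The knockout thus went with less Usp26 under RA (log2 fold change -3.33 ± 0.23) and with more under Dux OE (1.52 ± 0.18). Arap2, a GTPase-activating protein for Arf, and Phldb2, a membrane-anchored protein of the cell cortex, were called lower in none of the 7 and higher in SE KO PlaB. Arap2 had 14.2 and 16.7 CPM in PlaB, 14.1 and 15.8 CPM in Dux KD PlaB and 44.7 and 26.4 CPM in SE KO PlaB.

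**Figure D4:**
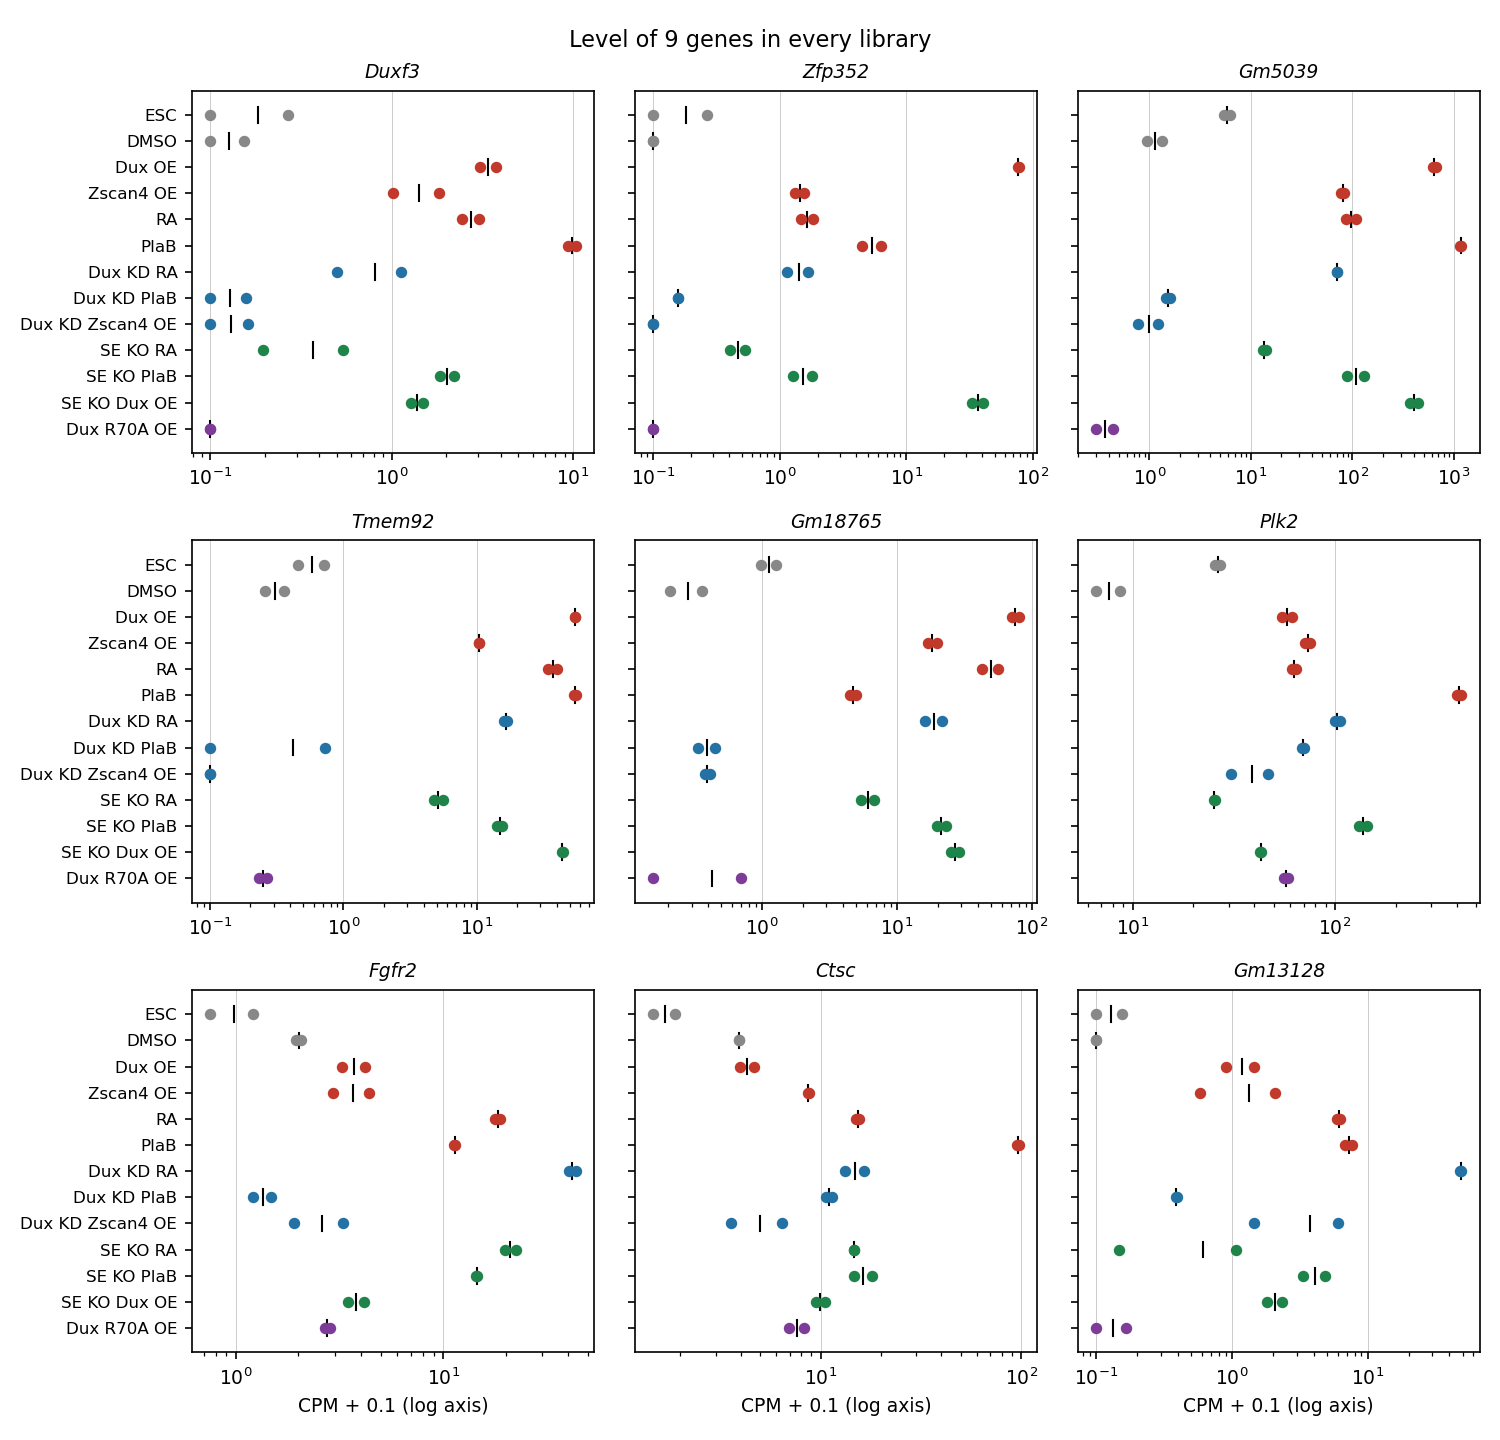
CPM plus 0.1, on log axes, of 9 genes in every library (points), with the mean of the 2 replicates as a bar and the colours of the family plot. Duxf3, Zfp352, Gm5039 and Tmem92 drop toward the control level in Dux KD PlaB, Dux KD Zscan4 OE and Dux R70A OE, Gm18765 is higher in SE KO PlaB than in PlaB, and Plk2, Fgfr2, Ctsc and Gm13128 depart from this pattern in Dux KD RA or Dux R70A OE.

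The 3 genes of the set with the shared promoter run were set side by side as a description. Eif4a3l1, an Eif4a3-like gene, had 431 and 438 CPM in Dux OE, 154 and 148 CPM in SE KO Dux OE and 0.112 and 0 CPM in Dux R70A OE. Sp110, a nuclear body gene, had 55.6 and 61.3 CPM, 28.0 and 18.9 CPM and 0.223 and 0.199 CPM in the same groups. Gm4340 had 365 and 189 CPM, 141 and 118 CPM and 0.279 and 0.332 CPM. All 3 were called lower in 6 of the 7 comparisons and not in Dux KD RA, where their log2 fold changes were -0.97, 0.45 and -0.55. Such calls are common in the set, where 49 genes were called lower in 6 and 116 had no call in Dux KD RA. Genes outside the set that hold the run were not examined, so nothing is read about the run. Replicates of Gm4340 lay apart, with 60.6 and 22.5 CPM in RA and 150 and 366 CPM in PlaB.

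Known 2-cell genes without a left-out name were covered by a list of 60, of which 53 were tested and 20 are in the set. Relatives of the left-out genes under other names can be among them. In Dux KD PlaB, Dux KD Zscan4 OE, SE KO RA, SE KO PlaB and Dux R70A OE, 19 of these 20 were called lower, the exception each time being Arap2. In Dux KD RA 2 were called lower, Tmem92 and Kdm4dl, and 2 higher, Abcb5 and Arap2. In SE KO Dux OE 5 were called lower. Kdm4dl, a copy of a histone demethylase gene, had 13.6 and 14.6 CPM in RA, 5.62 and 4.11 CPM in Dux KD RA and 0.819 and 1.32 CPM in SE KO RA. Arg2, the mitochondrial arginase, had 19.5 and 17.8 CPM, 11.8 and 11.5 CPM and 4.34 and 3.83 CPM in the same groups. Lmx1a, a LIM homeobox factor, had 4.49 and 3.02 CPM, 5.81 and 5.63 CPM and 0.337 and 0.484 CPM. The order Dux KD RA above SE KO RA held for all 3 genes without overlap. Of the 33 tested list genes outside the set, 1 was called lower in Dux KD RA, 21 in Dux KD PlaB and 8 in Dux KD Zscan4 OE. In SE KO RA 16 were called lower, in SE KO PlaB 11, in SE KO Dux OE 7 and in Dux R70A OE 17. In the same order, 3, 5, 1, 2, 4, 0 and 1 were called higher. Over all tested genes the shares called lower were, in that order, 4.54%, 28.8%, 5.35%, 11.0%, 26.1%, 3.84% and 7.51%.

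A core list of 8 genes was drawn up in the study from several models of totipotent cells, Zscan4c overexpression among them. The transcriptomes it started from include the sources that the study cites for RA and PlaB induction. Zscan4 OE, RA and PlaB also chose the genes here, so the overlap is not independent. The list has 5 genes in the set, namely Duxf3, Cpb2, Dnah7c, Trim75 and Gm27167. All 5 were called lower in each of the 7 comparisons other than Dux KD RA, where only Duxf3 was, and SE KO Dux OE, where 4 were. Trim75, a TRIM family gene, had 89.8 and 76.6 CPM in PlaB, 0.0574 and 0.176 CPM in Dux KD PlaB and 6.53 and 4.52 CPM in SE KO PlaB. Cpb2, a carboxypeptidase gene, had 3.96 and 4.75 CPM in RA, 6.01 and 4.31 CPM in Dux KD RA and 0.241 and 0.528 CPM in SE KO RA. Dnah7c, an axonemal dynein heavy chain gene, had 53.4 and 57.8 CPM in Dux OE, 21.2 and 17.6 CPM in SE KO Dux OE and 1.34 and 1.53 CPM in Dux R70A OE. Trim75 and Cpb2 thus lay between the induced level and the control in the SE KO groups.

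Of 26 p53 target genes, Plk2 alone is in the set. It had 402 and 422 CPM in PlaB, 68.7 and 70.4 CPM in Dux KD PlaB and 132 and 145 CPM in SE KO PlaB, called lower in both, and 61.5 and 64.1 CPM in RA, 106 and 99.8 CPM in Dux KD RA and 25.4 and 25.1 CPM in SE KO RA. Of the other 25 targets 7 were called lower and 7 higher in Dux KD PlaB than in PlaB. In SE KO RA 1 was called lower and 4 higher than in RA. Over all tested genes 28.8% were called lower in Dux KD PlaB and 11.0% in SE KO RA.

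Both controls were used to choose the genes, so their difference is given as a description from which nothing is read. In DMSO 56 of the 153 genes were called lower than in ESC and 8 higher, against 7.91% and 8.32% of all genes, with a median log2 fold change of -1.73. The labels do not say what else differs between untreated and DMSO cells.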

How the data were processed

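Poly(A) RNA of mouse R1 ESCs was sequenced in 26 libraries, and the authors deposited 1 table of whole-number counts per gene for all libraries. The submitters' processing notes name FastQC, Trimmomatic, STAR, featureCounts, DESeq2 and the mm10 build. Versions, strand setting and the treatment of reads that match several copies are not given in the sources used here. Transgene reads were not analysed here.

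CPM was computed from the counts by column sum. The 153 genes and the gene lists were chosen with earlier results of these data known. Counts were fitted with edgeR 4.0.16 (R 4.3.3, quasi-likelihood test, TMM, filterByExpr, prior count 0.125) over all 13 groups, with limma 3.58.1 loaded by it, and p-values were adjusted by Benjamini-Hochberg over 20953 genes. The common biological coefficient of variation was 0.0833. A call needed an adjusted p under 0.05 and a log2 fold change of at least 1 either way. The SE of a log2 fold change was derived as its absolute value divided by the square root of edgeR's F statistic. It is a rough guide for genes near 0 counts. A fold against a group without a count was set against 3 counts in each library of that group, and intervals of this kind cover counting error only. Totals were 14401452 to 39402840 counts (median 18276934). The fits were tested on simulated data. Alike transcripts were found with blastn 2.17.0, and gene positions and types came from GENCODE M21.

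Genes were named by rule: those on a list, the 15 with the highest mean ratio, the 10 with the highest mean CPM over the inductions, the 3 lowest and 3 highest called genes of at least 5 CPM in each of the 7 and of the 3 independent comparisons, the 5 on either side of the threshold, and up to 10 called lower in all 7. Genes given as the full membership of a count, or as examples of the 21 least lowered genes, were chosen after their values were seen, as was Gm8723. Alternatives were DESeq2 1.42.0, other scalings, no count filter, fits of 2 groups, a replicate block, each replicate left out, and other forms of the choosing rule. The replicate numbers did not pair the libraries, since deviations of same-numbered libraries correlated between -0.122 and 0.0298.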

Additional observations from a re-analysis of the deposited data

Results flagged for a closer look

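The effect of 1 perturbation differed between inductions in 4 tests of the difference itself, all by interaction terms in edgeR. The Dux KD effect differed between PlaB and RA in 144 of the 153 genes, against 52.2% of all tested genes. Between Zscan4 OE and RA it differed in 136, against 12.3%, with knockdown libraries that are labelled as untreated. The SE KO effect differed between PlaB and RA in 79 genes, a share of 51.6% that is close to the 49.0% of all genes and so no result about the set. Between Dux OE and RA it differed in 114, against 20.8%. Gm5039 differed by -8.94 ± 0.22 on the log2 scale between the Dux KD effects in PlaB and RA, and Fgfr2, which was called higher in Dux KD RA and lower in Dux KD PlaB, by -4.10 ± 0.29. Between the SE KO effects in PlaB and RA, Gm16478 differed by 5.22 ± 0.16 and Ctsc by -2.43 ± 0.21. Between those in Dux OE and RA, Usp26 differed by 4.84 on the log2 scale. What lies behind these differences was not tested.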

How the results depend on the processing

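Stability was scored on 22 counts, which leave out lower calls against a control. Those lower calls were less stable. In fits of 2 groups alone against ESC, which tested 65 and 61 of the genes, they fell from 65 to 27 in Dux R70A OE and from 41 to 21 in Dux KD Zscan4 OE. No named gene changed direction in 7099 comparisons, of which 57 lost and 40 gained a call. Of 232 alternative values of the 22 counts, 227 lay within 1.5 times the reported count. The 5 that moved concern the choice of genes, which gave 344 genes at a ratio of 1.5, 62 at a ratio of 3, 233 with 0.5 added to CPM, 89 with 2 added and 269 with DMSO as the control of all inductions. With 1 replicate alone the rule gave 150 to 151 genes.

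Leaving out 1 library at a time gave 30 to 37 genes lower in Dux KD RA, 147 to 148 in Dux KD PlaB, 135 to 137 in Dux KD Zscan4 OE, 131 to 134 in SE KO RA, 100 to 106 in SE KO PlaB, 42 to 66 in SE KO Dux OE and 137 to 141 in Dux R70A OE. A replicate block changed the genes called between SE KO RA and Dux KD RA from 125 to 124 and those called higher in SE KO RA than in DMSO from 119 to 121, and those called lower in DMSO than in ESC from 56 to 57. It changed none of the other counts compared with it. Depth limits genes near 3 counts, and a left-out library leaves 1 sample that is assumed to vary like the other groups.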
